A study of Mus musculus with 9 samples.

Results

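The genes described here degrade heme or move and store iron. They were 10 genes chosen by name among the 53801 genes counted: *Hmox1*, *Blvra* and *Blvrb* (heme breakdown), *Slc48a1* (heme transport), *Tfrc* and *Slc11a1* (iron entry and movement between compartments), *Fth1*, *Ftl1* and *Ncoa4* (iron storage and its release) and *Slc40a1* (iron export). All 10 were found in the count files and all 10 passed the filter on low counts in every comparison.

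Macrophages take in dying cells, some of which carry heme. Heme oxygenase opens the heme ring and frees the iron, biliverdin reductase turns the resulting biliverdin into bilirubin, and the iron is then stored in ferritin, used in the cell or exported through ferroportin. Iron regulatory proteins bind a short RNA hairpin, the iron-responsive element, when iron is scarce: bound to the 5′ untranslated region of a ferritin or ferroportin mRNA they block its translation, and bound to the 3′ untranslated region of the transferrin receptor mRNA they protect it from decay. RNA counts do not show the amount of protein.

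The cells were monocytes and macrophages of C57BL/6J male mice, 9 weeks old, sorted by flow cytometry as CD45high, CD11b+, Ly6G- and CD11c-. Sham blood was the blood of sham-operated mice (3 libraries, 1 mouse each), taken on a day that the sources used here do not give. Stroke blood came from mice 5 days after permanent closure of the left common carotid and distal middle cerebral arteries (dMCAO; 3 libraries, 1 mouse each), and stroke brain was the hemisphere on the injured side at the same day (3 libraries, each a pool of 5 brains). Blood cells were collected over Ficoll, whereas brain tissue was dissociated with enzymes and passed over Percoll, so that tissue, pooling and preparation cannot be told apart in a comparison of brain with blood. No brain of sham mice was analysed here. Each library is a separate mouse or pool. In such bulk RNA, fewer cells of a type and less RNA per cell cannot be told apart.

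Library totals lay between 18475118 and 22623578 counts, and 3 counts correspond to between 0.133 and 0.162 CPM, the counts scaled to a common library total. Levels below are CPM scaled with TMM factors, which correct for differences in library composition. The blood libraries held red cell RNA: the 11 erythroid markers measured summed to between 14239 and 20018 CPM in stroke blood, to 34304 and 31334 CPM in sham blood 2 and 3, and to 1263 CPM in sham blood 1, which stood apart. In the brain the sum was between 3.87 and 14.8 CPM, with 4 of the 11 markers at 3 counts or fewer in every library. The 8 platelet markers summed to 18.9 CPM in sham blood 1, to between 334 and 682 CPM in the other blood libraries and to between 33.8 and 78.7 CPM in the brain. Most of the brain sum was *Pf4*, at 31.7, 53.2 and 74.0 CPM, which is also among the border-associated macrophage markers used below. No other platelet marker exceeded 2.91 CPM in a brain library. The 8 neutrophil markers summed to 3049 CPM in sham blood 3, to between 458 and 936 CPM in the other 5 blood libraries and to between 772 and 1311 CPM in the brain. Single markers went both ways. *Mmp8* was at 414 to 1311 CPM in blood and 110 to 145 CPM in the brain. *Ngp* was at 0 to 36.4 CPM in blood and 161 to 309 CPM in the brain, and *Camp* at 0 to 9.99 and 31.5 to 75.8 CPM. The rest of the list overlapped between brain and blood. The monocyte genes *Ly6c2* and *Ccr2* were detected in all 9 libraries, at 726 CPM or more, and the 8 monocyte markers summed to between 5422 and 6829 CPM in the brain and between 7456 and 11021 CPM in blood. The 8 dendritic cell markers summed to between 785 and 985 CPM in the brain and between 108 and 359 CPM in blood. The 8 microglia markers summed to between 1178 and 3489 CPM in the brain against 146 to 211 CPM in blood, where *Sall1* was at 0 in all 6 libraries. The 8 macrophage markers summed to between 11211 and 20295 CPM in the brain and between 3282 and 4767 CPM in blood. *Itgax*, which encodes the CD11c that the sort left out, was at 74.3 to 128 CPM in the brain and 9.99 to 20.3 CPM in blood. The part of these shifts in the brain comparisons below was not tested.

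Of the 10 genes, 4 carried an iron-responsive element in the untranslated regions of their principal transcript, and these 4 include the 3 genes that rose in the brain, an overlap seen after the fact and not tested. The sequences are shown because this element is the feature that links ferritin, ferroportin and transferrin receptor mRNAs. Each is given 5′ to 3′ on the transcribed strand from GRCm38 (GENCODE M21), with the loop CAGTGN in capitals.

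*Slc40a1*, 5′ untranslated region, chr1:45925464-45925493, minus strand: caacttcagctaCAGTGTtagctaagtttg

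*Fth1*, 5′ untranslated region, chr19:9982732-9982761, plus strand: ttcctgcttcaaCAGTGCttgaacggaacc

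*Ftl1*, 5′ untranslated region, chr7:45459778-45459807, minus strand: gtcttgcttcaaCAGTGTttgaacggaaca

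*Tfrc*, 3′ untranslated region, chr16:32631219-32631248, plus strand: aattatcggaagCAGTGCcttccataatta

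*Tfrc*, 3′ untranslated region, chr16:32631598-32631627, plus strand: cattatcgggagCAGTGTcttccataatgc

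*Tfrc*, 3′ untranslated region, chr16:32631663-32631692, plus strand: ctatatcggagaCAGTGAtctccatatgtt

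*Tfrc*, 3′ untranslated region, chr16:32631710-32631739, plus strand: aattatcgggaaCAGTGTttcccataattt

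The search asked for the 6-base loop CAGTGN closed by 5 base pairs (G with T allowed) and preceded by an unpaired C. It found the element in 17 of 20577 5′ untranslated regions (0.083%) and in 85 of 20741 3′ untranslated regions (0.41%), counting 1 transcript a gene. *Fth1* and *Ftl1* share the unpaired C and the letters of the 5 base pairs. They differ in the last base of the loop and in some bases further out. The other 6 genes held no match, which says only that the letters asked for are not in the regions searched.

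Brain cells were first compared with blood cells of stroke mice. A gene was called differentially expressed (DEG) when its log2 fold change was beyond 1 in either direction with p below 0.05 after Benjamini-Hochberg adjustment over all genes tested (edgeR's quasi-likelihood test). *Slc40a1*, *Tfrc* and *Fth1* rose in the brain and none of the 10 fell by this rule, so that 3 of 10 were DEGs where 21.0% of all 13189 genes tested were (13.1% higher, 7.86% lower). At the adjusted p alone 4 of 10 passed, against a background of 30.6%, and the groups did not overlap for 5 of 10, against 47.9%. With 10 genes, these shares lie near the background. The median log2 fold change of the 10 was 0.30, beside 0.06 for all genes tested.

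**Figure D1:**
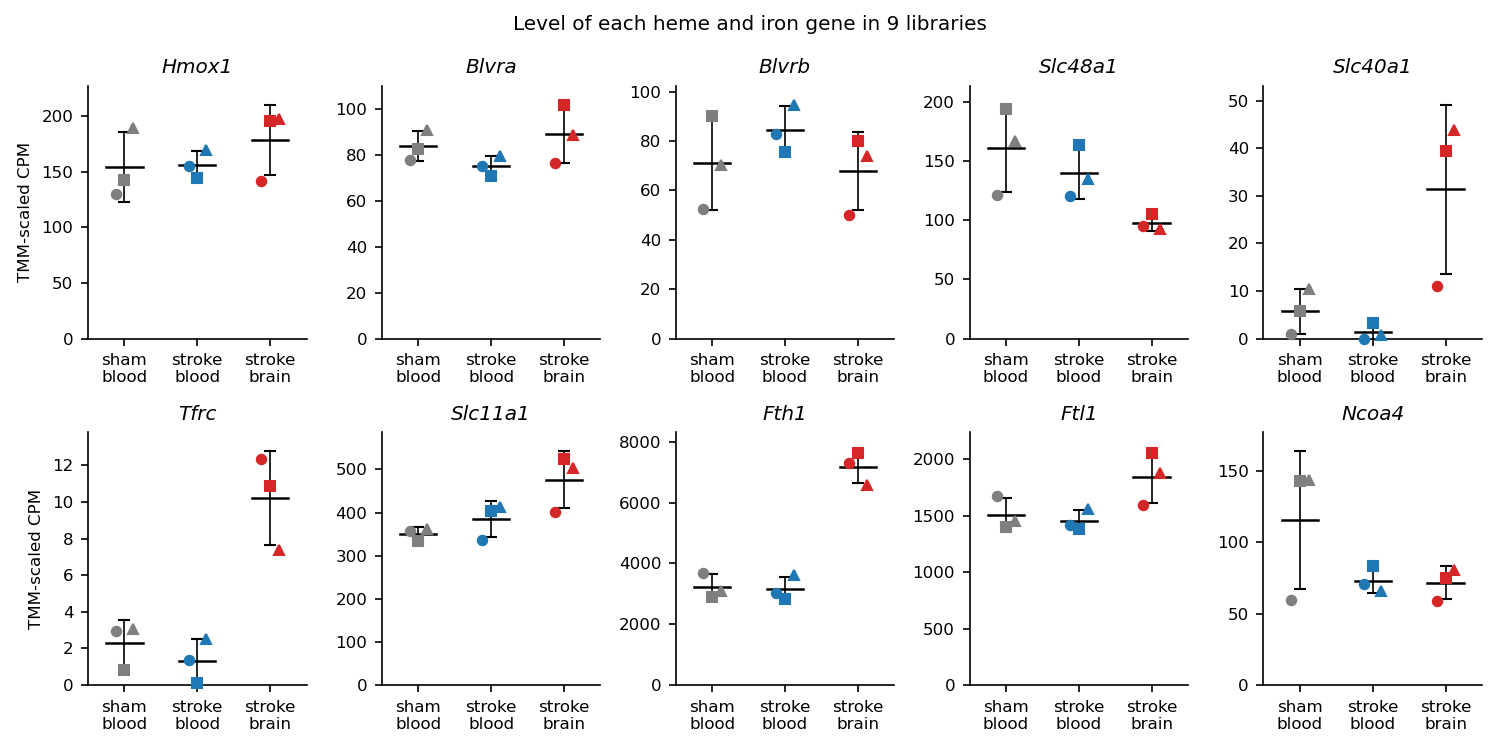
Level of each of the 10 genes (TMM-scaled CPM, linear axes from 0) in sham blood, stroke blood and stroke brain. Circles, squares and triangles are replicates 1, 2 and 3 (numbers do not link groups), bars are the mean and SD of 3 libraries (cut at 0), and the brain libraries lie above all blood libraries for *Slc40a1*, *Tfrc* and *Fth1*.

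*Fth1* (ENSMUSG00000024661), on chromosome 19 at 9982703-9985092, encodes the ferritin heavy chain, which oxidises iron as it enters the ferritin shell. Its level was 3697, 2906 and 3094 CPM in sham blood, 3028, 2827 and 3609.8 CPM in stroke blood and 7289.8, 7618 and 6581 CPM in the brain. Every brain library lay above every blood library, by more than the spread within any group. The log2 fold change of brain over stroke blood was 1.21 (standard error 0.16, 95% interval 0.84 to 1.58, adjusted p = 0.000734), which is 2.31-fold and whose interval reaches below the 2-fold rule. Against sham blood it was 1.16 (standard error 0.15, adjusted p = 0.00328). *Fth1* alone took from 0.274% to 0.358% of the counts of a blood library and from 0.70% to 0.809% of those of a brain library.

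*Ftl1*, the ferritin light chain, which helps the iron core form, was at 1672, 1399 and 1453 CPM in sham blood, 1421, 1383 and 1560.0 CPM in stroke blood and 1595, 2052.5 and 1874 CPM in the brain. The brain libraries lay above those of stroke blood, but the lowest brain library was below the highest sham blood library. Its log2 fold change was 0.36 against stroke blood (95% interval 0.02 to 0.70, adjusted p = 0.0969) and 0.30 against sham blood (95% interval -0.04 to 0.64, adjusted p = 0.194), and neither passed. Annotated copies of the light chain gene held between 3.9% and 6.78% as many counts as *Ftl1*, and the treatment of reads that match several copies was not given in the sources used here, so that its level is uncertain, whereas copies of *Fth1* held at most 0.0167% as many. Part of the exons of *Ftl1* (355 bases) lies opposite *Gm10252*, which had at most 4 counts.

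The ratio of the ferritin chains was then compared inside each library, where scaling plays no part. There were 2.21, 2.08 and 2.13 *Fth1* counts per *Ftl1* count in sham blood, 2.13, 2.04 and 2.31 in stroke blood and 4.57, 3.71 and 3.51 in the brain. The blood libraries fell in a narrow band and the brain libraries all lay above it. The mean log2 ratio differed by 0.85 between brain and stroke blood (1.81-fold) and by 0.87 between brain and sham blood (1.83-fold), with an exact two-sided permutation p = 0.1 in both cases, the smallest that 3 libraries against 3 can give. Stroke and sham blood differed by 0.01 (exact permutation p = 0.8). The ratio is not corrected for transcript length, so it is read only between libraries.

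**Figure D2:**
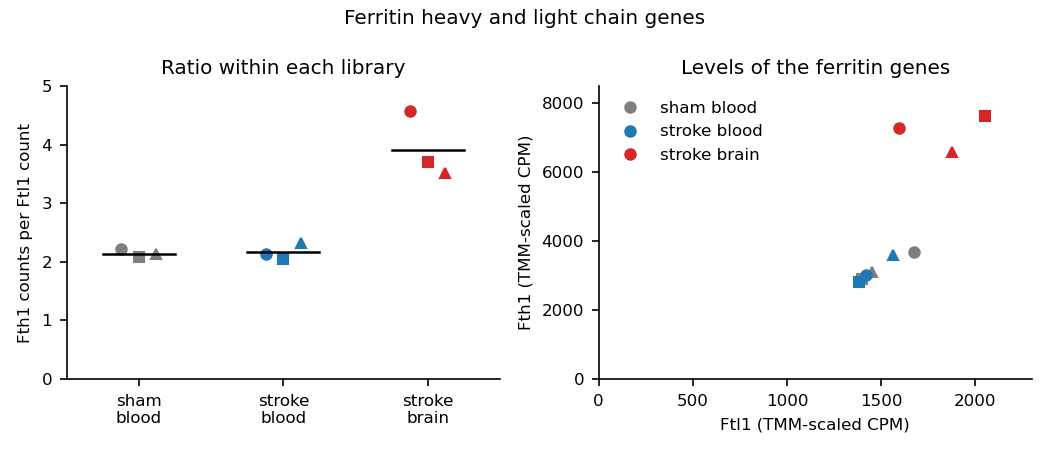
Left, *Fth1* counts per *Ftl1* count in each library (linear axis from 0), with the geometric mean of each group as a line. Right, the level of *Fth1* against that of *Ftl1* (TMM-scaled CPM) in the 9 libraries, with marker shapes for replicates 1 to 3. The 6 blood libraries lie between 2.04 and 2.31 and the brain libraries between 3.51 and 4.57.

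*Ncoa4* encodes the receptor that delivers ferritin to the lysosome so that its iron is released. It was at 59.6, 143 and 144 CPM in sham blood, 70.5, 83.2 and 65.9 CPM in stroke blood and 58.6, 75.2 and 80.8 CPM in the brain. Brain and stroke blood overlapped, and their log2 fold change was -0.01 (95% interval -0.41 to 0.39, adjusted p = 0.972). Sham blood 2 and 3 lay above all other libraries, while sham blood 1 lay with them.

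*Slc40a1* encodes ferroportin, the iron exporter, and had few reads in blood. Its counts were 19, 122 and 187 in sham blood, 0, 67 and 14 in stroke blood and 228, 945 and 1006 in the brain, or 0.954, 5.75 and 10.4, then 0, 3.205 and 0.819, then 11.02, 39.3 and 43.8 CPM. The lowest brain library was just above the highest sham blood library, and the spread within each group was wide. Brain exceeded stroke blood by 4.54 on the log2 scale (standard error 0.95, 95% interval 2.39 to 6.68, adjusted p = 0.00687), and the size of this change rests on few counts in blood: it was 3.93 without stroke blood 1 (0 counts) and 6.29 without stroke blood 2 (67 counts). Against sham blood the log2 fold change was 2.47 (standard error 0.79, 95% interval 0.64 to 4.30) and did not pass (adjusted p = 0.0637). It passed without stroke brain 1, the lowest of the brain libraries (2.87, adjusted p = 0.0404).

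Some, not all, markers of macrophages at the borders of the brain had the order of *Slc40a1* over the brain libraries. *Cd163* was at 6.38, 17.1 and 20.0 CPM, *Lyve1* at 0.193, 5.33 and 13.1 CPM and *Mrc1* at 29.4, 63.5 and 85.6 CPM in brain 1, 2 and 3. *Pf4* had this order too, at 31.7, 53.2 and 74.0 CPM, but was at 4.77 to 138 CPM in blood. In blood *Lyve1* and *Folr2* were at 2 counts or fewer in each library and *Mrc1* was at most 11.9 CPM. The sum of the 8 border-associated markers, *Cd163*, *Lyve1*, *Mrc1*, *Pf4* and *Folr2* among them, did not have that order. It was 1119.8, 1104 and 1335 CPM in brain 1, 2 and 3 and between 1679 and 4138 CPM in blood. The largest part was *F13a1*, at 979, 869 and 1024 CPM in brain 1, 2 and 3, and the microglia sum was 1178, 1882 and 3489 CPM in brain 1, 2 and 3. The part of these cells in the level of *Slc40a1* was not tested.

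*Tfrc* encodes the transferrin receptor, through which cells take up iron bound to transferrin. It had 59, 17 and 55 counts in sham blood, 27, 2 and 43 in stroke blood and 256, 262 and 170 in the brain, or 2.96, 0.801 and 3.06, then 1.36, 0.0957 and 2.52, then 12.4, 10.9 and 7.40 CPM. All brain libraries lay above all blood libraries. The log2 fold change was 3.00 against stroke blood (standard error 0.75, 95% interval 1.32 to 4.67, adjusted p = 0.0148) and 2.18 against sham blood (standard error 0.51, 95% interval 1.01 to 3.36, adjusted p = 0.022). The first was 2.39 without stroke blood 2 and 3.80 without stroke blood 3, and its call was lost without stroke blood 1 (2.98, adjusted p = 0.0628). The call against sham blood was lost without sham blood 3 (2.45, adjusted p = 0.0526) or stroke brain 2 (2.13, adjusted p = 0.065). Relative to *Fth1* in the same library, *Tfrc* was higher in the brain by 2.55 on the log2 scale against stroke blood and by 1.19 against sham blood (exact permutation p = 0.1 in both, the smallest possible). Without stroke blood 2, which had 2 *Tfrc* counts, the former difference was 1.30, and without sham blood 2, which had 17, the latter was 0.64.

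*Slc11a1* encodes Nramp1, a metal transporter of the phagosome membrane of macrophages that moves iron out of the phagosome. It was at 357, 333 and 363 CPM in sham blood, 337, 404 and 413 CPM in stroke blood and 401, 525 and 503 CPM in the brain. The lowest brain library lay inside the range of stroke blood and above that of sham blood. Its fold change on the log2 scale was 0.33 against stroke blood (95% interval -0.03 to 0.69, adjusted p = 0.146) and 0.45 against sham blood (95% interval 0.12 to 0.78, adjusted p = 0.0607).

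*Slc48a1* encodes HRG1, which carries heme from the phagolysosome to the cytosol. It was at 121.5, 194 and 166 CPM in sham blood, 120.3, 164 and 135 CPM in stroke blood and 95.2, 105 and 92.4 CPM in the brain. All brain libraries lay below all blood libraries. The log2 fold change was -0.49 against stroke blood (standard error 0.17, adjusted p = 0.0482) and -0.71 against sham blood (standard error 0.19, adjusted p = 0.0343), past the adjusted p but short of the 2-fold rule. The adjusted p stayed below 0.05 in 6 of 15 alternative analyses of the former and in 9 of 15 of the latter. With scaling to the library size alone the change against stroke blood was -0.34 (adjusted p = 0.152). Its exons share 29 bases with *Hdac7* on the opposite strand, and *Hdac7* had at most 240 counts in a library.

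No enzyme of heme breakdown passed the test in any comparison. *Hmox1*, the inducible heme oxygenase, was at 130.3, 143 and 189 CPM in sham blood, 155, 144 and 169 CPM in stroke blood and 142, 196 and 198 CPM in the brain. The 3 groups overlapped, since brain 1 lay below every stroke blood library. The log2 fold change of brain over stroke blood was 0.22 (95% interval -0.16 to 0.59, adjusted p = 0.36), an interval that leaves out a rise of 2-fold. Against sham blood it was 0.22 (95% interval -0.23 to 0.68, adjusted p = 0.458). The ratio of *Hmox1* to *Slc40a1* counts was 18.1 or more in every blood library and 12.8, 4.97 and 4.51 in the brain (exact permutation p = 0.1 against either blood group, the smallest possible). In stroke blood 1 that ratio rests on 0 counts of *Slc40a1*.

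*Blvra*, biliverdin reductase A, was at 78.0, 82.7 and 91.1 CPM in sham blood, 75.1, 70.8 and 79.8 CPM in stroke blood and 76.7, 102 and 89.0 CPM in the brain. *Blvrb*, the B form, was at 52.5, 90.1 and 70.3 CPM in sham blood, 82.7, 75.5 and 94.7 CPM in stroke blood and 49.96, 79.9 and 74.0 CPM in the brain. The groups overlapped for both genes. Their log2 fold changes of brain over stroke blood were 0.27 (95% interval -0.09 to 0.63, adjusted p = 0.228) and -0.29 (95% interval -0.73 to 0.16, adjusted p = 0.305).

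**Figure D3:**
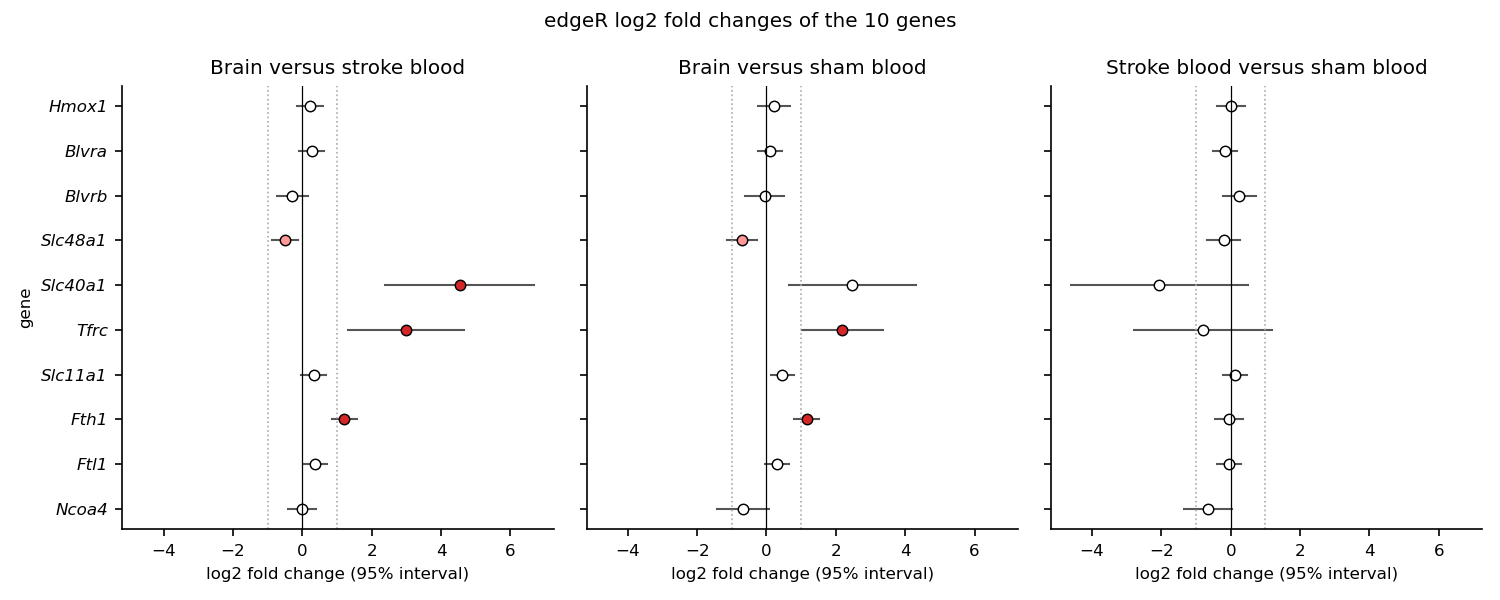
edgeR log2 fold change (point) and 95% interval (line) of the 10 genes in the comparisons of brain with stroke blood, brain with sham blood and stroke blood with sham blood. Red points are DEGs, pink points passed the adjusted p alone, white points did neither, and dotted lines mark log2 fold changes of -1 and 1. *Fth1* and *Tfrc* are red in both brain comparisons, *Slc40a1* in the first alone, and no gene is coloured in the third.

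Blood of stroke mice was compared with blood of sham mice to ask whether the genes differed in circulating cells after stroke. None of the 10 was a DEG by edgeR or by DESeq2, and none had an unadjusted p below 0.05, against 1 DEG among 12664 genes tested (0.00790%) and 12.5% of genes at the unadjusted p. The groups overlapped for all 10 genes, against 18.4% of genes whose groups did not. The log2 fold changes lay between -2.07 for *Slc40a1* (95% interval -4.62 to 0.49, adjusted p = 0.476) and 0.24 for *Blvrb* (95% interval -0.24 to 0.72, adjusted p = 0.647). The intervals left out a 2-fold change for *Hmox1* (-0.38 to 0.41), *Fth1* (-0.44 to 0.36), *Ftl1* (-0.41 to 0.29) and *Slc11a1* (-0.21 to 0.46). They also did for *Blvra* (-0.50 to 0.17), *Blvrb* and *Slc48a1* (-0.67 to 0.26), but not for *Tfrc* (-2.78 to 1.18), *Slc40a1* or *Ncoa4*. *Ncoa4* had a log2 fold change of -0.66 (95% interval -1.35 to 0.03, adjusted p = 0.411), and -0.97 (adjusted p = 0.0788) without sham blood 1.

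Against sham blood, brain cells had 2 DEGs among the 10, *Fth1* and *Tfrc*, where 13.4% of 13020 genes tested were DEGs (9.75% higher, 3.67% lower), and 3 at the adjusted p alone, where 19.8% were. The groups did not overlap for 5 of 10, against 41.3%. This comparison uses the same brain libraries as the first, so the values stand side by side and are not independent. The log2 fold change of *Ncoa4* was -0.68 (adjusted p = 0.182) and became -0.99 (adjusted p = 0.012) without sham blood 1, the library low in erythroid RNA. The counts of DEGs among the 10 were the same without it.

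The other genes of heme and iron handling were 54 genes in 7 groups. Of these, 44 were tested between brain and stroke blood, and 6 were DEGs higher and 8 lower in the brain, against 13.1% and 7.86% of all genes. Between stroke and sham blood none of 43 was a DEG by edgeR or DESeq2, and 5 had an unadjusted p below 0.05, where 12.5% of all genes did. Between brain and sham blood 11 of 45 were DEGs, 6 higher and 5 lower, against 9.75% and 3.67% of all genes. *Cybrd1*, *Ftmt*, *Hamp*, *Steap2* and *Tfr2* had at most 3 counts in every library.

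Among 7 tested genes of heme breakdown and heme or globin uptake, 2 rose and 2 fell, where 13.1% and 7.86% of all genes tested did. *Lrp1* had a log2 fold change of -0.90 that passed the adjusted p alone (0.00715), without overlap of the groups. *Cd163*, the scavenger receptor for hemoglobin bound to haptoglobin, rose by 2.28 on the log2 scale (adjusted p = 0.00552), from 2.02, 4.07 and 2.98 CPM in stroke blood. *Slc46a1*, a transporter of folate that also carries heme, rose by 1.84 (adjusted p = 0.00401), from 3.18, 5.21 and 3.803 CPM to 9.37, 14.4 and 19.3 CPM. *Hp*, which encodes haptoglobin itself, fell by 1.70 (adjusted p = 0.00015), from 2117, 1608 and 2223 CPM to 559, 637 and 597 CPM. *Flvcr1*, described as a heme exporter, fell by 1.12 (adjusted p = 0.00447), a call lost without stroke blood 2 and with scaling to library size alone, and its exons overlap an antisense gene. *Hmox2*, the constitutive heme oxygenase, was at 104, 99.1 and 129.8 CPM in stroke blood and 99.7, 109 and 117 CPM in the brain (adjusted p = 0.98).

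Among 9 tested genes of iron uptake and reduction, *Slc39a14*, a zinc transporter that also takes up free iron, rose by 2.51 (adjusted p = 0.00182), from 2.02, 3.68 and 2.87 CPM to 24.4, 10.9 and 12.8 CPM. *Steap3*, the ferrireductase of endosomes that acts after transferrin receptor uptake, fell by 1.76 (adjusted p = 0.00164), from 16.96, 20.3 and 27.0 CPM to 6.72, 4.79 and 7.05 CPM. *Steap3* thus moved opposite to *Tfrc*. Among 3 tested genes of storage, chaperoning and export, *Cp* (ceruloplasmin, the ferroxidase that works with ferroportin) rose by 4.22 (standard error 0.75, adjusted p = 0.003), from 8, 10 and 2 counts in stroke blood to 50, 107 and 278 counts in the brain. *Cp* shares exon bases with *Hps3* on the other strand, so part of its reads is uncertain. *Pcbp2*, an iron chaperone, fell by 1.19 (adjusted p = 0.0185), overlaps other genes and kept its call in 2 of the 6 analyses that left out a library.

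Of the iron regulatory proteins, *Ireb2* fell by 1.26 (adjusted p = 0.0065), from 17.5, 22.4 and 24.1 CPM in stroke blood to 11.2, 7.41 and 7.57 CPM in the brain. All brain libraries lay below all blood libraries. *Aco1*, which encodes the other of these proteins, had a log2 fold change of -0.11 (adjusted p = 0.737), and *Fbxl5*, which marks them for degradation, 0.12 (adjusted p = 0.624). Against sham blood *Ireb2* fell by 1.15 (adjusted p = 0.0182), a call lost without sham blood 3, stroke brain 2 or stroke brain 3. In that comparison *Fbxl5* had a log2 fold change of -0.71 that passed the adjusted p alone (0.0353), without overlap of the groups, and *Aco1* had -0.42 (adjusted p = 0.0705).

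Of the mitochondrial genes 2 of 7 fell and of the heme synthesis genes 1 of 8, where 7.86% of all genes tested did. No gene of either group was a DEG higher in the brain, where 13.1% of all genes tested were. With no fold change threshold, 4 of 8 heme synthesis genes passed the adjusted p, against 30.6% of all genes tested. Of these 4, 2 were higher and 2 lower in the brain. *Slc25a37*, the importer of iron into mitochondria (mitoferrin), fell by 2.72 (adjusted p = 6.17e-05) from 97.7, 80.0 and 97.2 CPM in stroke blood to 17.6, 11.03 and 12.1 CPM in the brain. *Fech*, which inserts the iron into heme, fell by 1.99 (adjusted p = 4.74e-05) from 227, 240.1 and 199.6 CPM to 52.7, 50.9 and 61.6 CPM. Both genes are also highly expressed in red cell precursors. In sham blood 1, the library with little erythroid RNA, *Slc25a37* was at 15.7 CPM and *Fech* at 67.2 CPM, next to the brain libraries, while in sham blood 2 and 3 they were at 165 and 156 CPM and at 447 and 391 CPM. The part of erythroid RNA in these falls was not tested.

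**Figure D4:**
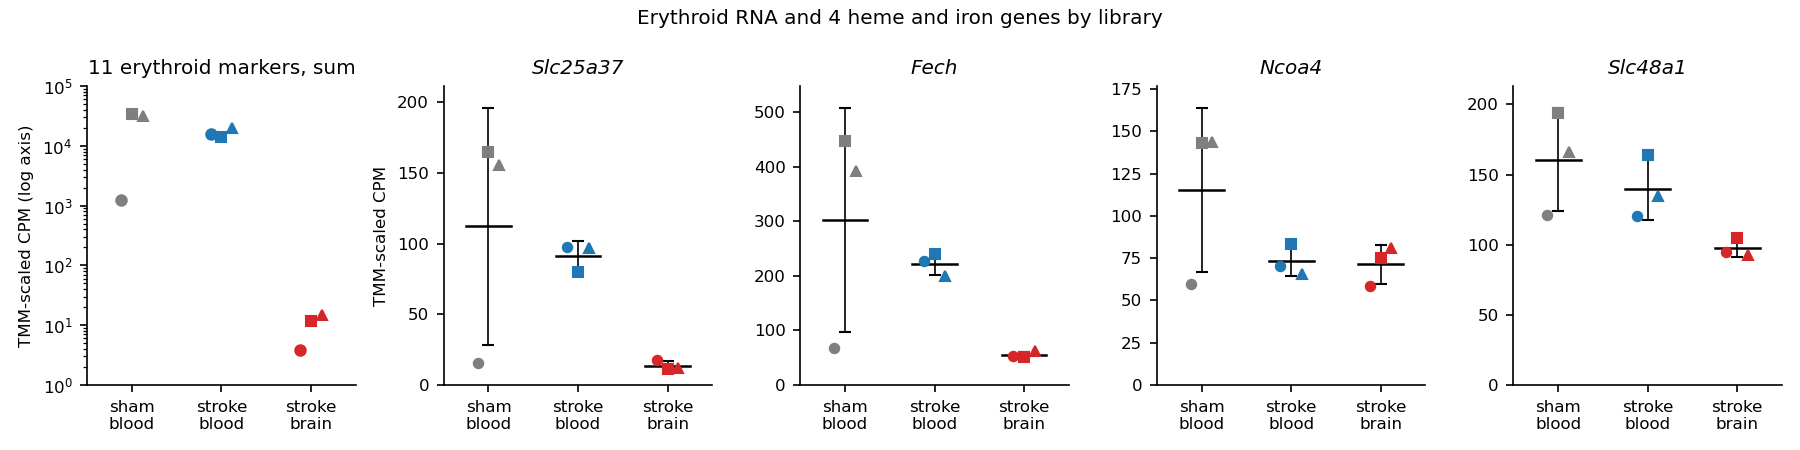
Summed level of 11 erythroid markers (log axis) and the levels of *Slc25a37*, *Fech*, *Ncoa4* and *Slc48a1* (linear axes from 0; TMM-scaled CPM) by library, with bars for the mean and SD of 3 libraries. Sham blood 1 (grey circle) is the lowest sham library in all 5 panels, at 1263 CPM for the erythroid sum beside 34304 and 31334 CPM.

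Sham blood 1 was also the lowest sham library for *Blvra* (78.0 CPM), *Blvrb* (52.5 CPM), *Slc40a1* (0.954 CPM) and *Hmox1* (130.3 CPM). It was the highest for *Fth1* (3697 CPM) and *Ftl1* (1672 CPM). With 3 libraries in the group, these orders are a description.

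The transcription regulators included 2 that rose among 7 tested and none that fell, where 13.1% of all genes tested rose and 7.86% fell. *Maff* rose by 2.19 (adjusted p = 0.013) from 23, 15 and 13 counts to 129, 78 and 54 counts, and *Mafk* rose by 1.27 (adjusted p = 0.00761) from 37.1, 54.3 and 38.5 CPM to 144.6, 81.9 and 80.4 CPM. Both encode small Maf proteins, the partners of NRF2 and BACH1 on the enhancers of *Hmox1* and the ferritin genes. *Nfe2l2*, which encodes NRF2, was at 222, 263 and 219.8 CPM in stroke blood and 479, 389.8 and 333 CPM in the brain. Its log2 fold change of 0.80 passed the adjusted p alone (0.00929), and so did that of *Mafg*, 0.67 (adjusted p = 0.0309). *Bach1*, the heme-sensing repressor, had a log2 fold change of -0.74 (adjusted p = 0.08), and *Spic*, a factor of red pulp macrophages, 0.38 (adjusted p = 0.465). The calls of *Maff* were lost without stroke blood 2 or stroke blood 3, and that of *Mafk*, whose exons overlap *Tmem184a*, without stroke brain 1. Of the 14 DEGs among these other genes, 9 were called in every analysis that left out a library.

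**Figure D5:**
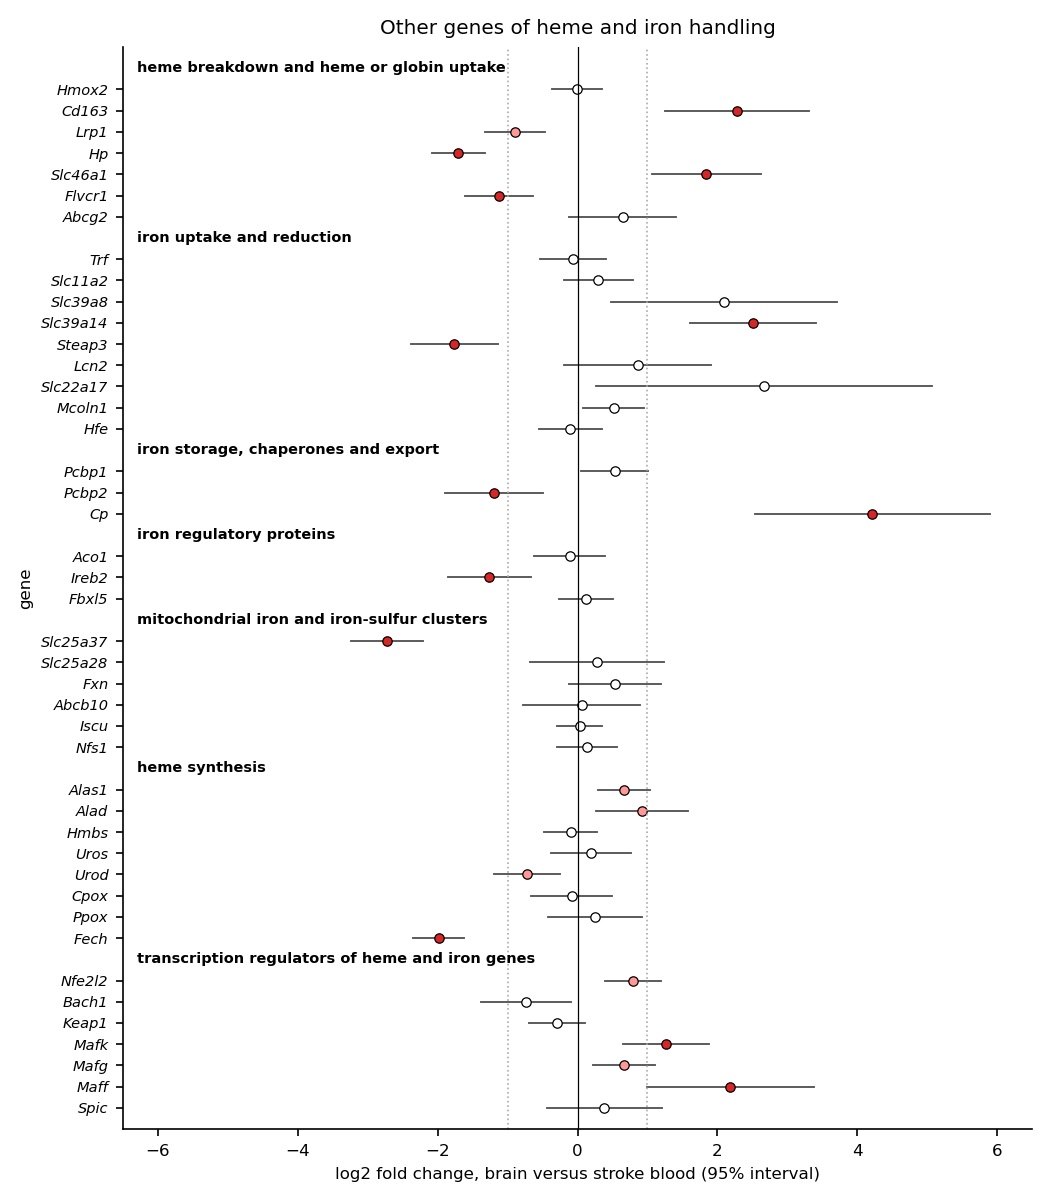
edgeR log2 fold change (point) and 95% interval (line) between brain and stroke blood for 43 of the 44 tested genes of heme and iron handling beyond the 10, grouped by role. Red points are DEGs, pink points passed the adjusted p alone and white points did neither; 6 red points lie to the right of 0 and 7 to the left.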

How the data were processed

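Sorted monocytes/macrophages of 3 sham blood, 3 stroke blood and 3 stroke brain libraries were sequenced (SMART-Seq HT and Nextera XT libraries). Groups and replicate numbers are those of the sample labels. The authors ran FastQC within Chipster for read quality, HISAT2 for alignment on GRCm38 and HTSeq for counting by gene, and the values deposited are raw, unscaled counts. Tool versions, annotation and strand setting are not given in the sources used here, so the values of overlapping genes are uncertain. Besides the genes named above, exons of *Mafg* overlap *Sirt7* on the same strand. Those of *Hmox2*, *Fbxl5* and *Slc25a37* overlap genes on the other strand. Some other listed genes and markers also overlap a gene. The libraries carry no molecular identifiers. The floor of 3 counts allows for counting error alone and not for copies made in amplification. Totals per library lay between 18475118 and 22623578.

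Identifiers were matched to GENCODE M21 (53706 of 53801). The files' starts were raised by 1 base to the usual numbering. edgeR 4.0.16 (R 4.3.3) fitted the 2 groups compared (TMM, filterByExpr, quasi-likelihood test), with Benjamini-Hochberg adjustment over all genes tested. The standard error is the absolute log2 fold change over the square root of F. Ratios of counts had 0.5 added to each count. Same-numbered libraries did not deviate together (r between -0.0909 and 0.102 over 9027 genes). Iron-responsive elements were searched in 1 transcript a gene. Scripts were tested on simulated data. Figures used Python 3.11.15 and matplotlib 3.10.9.

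The 10 genes, the other gene lists and the markers were chosen with earlier results of these data known. The rule for named genes was each of the 10, each other listed gene that was a DEG between brain and stroke blood or between stroke and sham blood, and listed genes with at most 3 counts in all libraries (1 DEG, kept in the counts, is not reported here); *Hmox2*, *Aco1*, *Fbxl5*, *Nfe2l2*, *Bach1* and *Spic* were added after their values were seen. The genes with the most similar pattern over the 9 libraries, which the rule also named, are not given, since the libraries form separate blood and brain clusters. Alternatives were DESeq2 1.42.0, other scalings, filters and thresholds, a single fit of 9 libraries, the replicate number as a block, downsampling, and leaving out each library.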

Additional observations from a re-analysis of the deposited data

How the results depend on the processing

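Scaling to library size alone moved the median log2 fold change of all genes by 0.15 and upper-quartile scaling by -0.15 between brain and stroke blood (0.12 and -0.07 against sham blood). Among the 10 genes, 3, 0 and 2 DEGs (brain with stroke blood, stroke with sham blood, brain with sham blood) were within 1.5 times in 47 of 51 alternatives. Against sham blood the count was 1 with all 9 libraries in a single fit or at an adjusted p below 0.01, and 1 to 3 with a library left out. For the other pathway genes against sham blood, 11 DEGs became 3 at 0.01, 19 with no fold change threshold and 4 to 10 with a library left out; between stroke and sham blood they were 2 without the filter on low counts. Over all genes, DEGs were 1793 and 792 at 0.01 for the brain comparisons, with 1146 to 1883 when a library was left out against sham blood; between stroke and sham blood they were 127 by DESeq2, 160 without the filter, 0 at 0.01 and 0 to 16 with a library left out.

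Among the 10 genes, the direction turned only for values near 0: *Ncoa4* between brain and stroke blood (0.14 by library size, -0.11 to 0.11 leaving out libraries), *Hmox1* (-0.0256 by library size, -0.0132 without the filter, -0.0942 to 0.178), *Fth1* (0.0304 by upper quartile, -0.156 to 0.0651) and *Ftl1* (0.0138, -0.118 to 0.0218) between stroke and sham blood, and *Blvra* (-0.0039 to 0.19) and *Blvrb* (0.0666 by library size, -0.23 to 0.15) between brain and sham blood. The log2 ratio of *Fth1* to *Ftl1* between stroke and sham blood lay between -0.0354 and 0.0541. The cause was not tested.

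With the replicate number as a block, which the labels do not tie to shared animals, the 10 genes had 3, 0 and 3 DEGs, with *Slc40a1* added against sham blood (2.74, adjusted p = 0.0075), and the other pathway genes had 6 DEGs against sham blood. *Tfrc* lost its call against sham blood in the fit of 9 libraries (adjusted p = 0.0665). It had no value between stroke and sham blood under a mean of at least 50 counts. *Tfrc* and *Slc40a1* had few counts in blood, which limits their values.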
